A study of Mus musculus with 12 samples.

Results

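The 10 genes Penk, Pdyn, Tac1, Sst, Npy, Cck, Vip, Crh, Cartpt and Adcyap1 encode precursors of neuropeptides made by neurons of the striatum and cortex. They were chosen by name and read from every library, and they are 10 of the 23282 gene rows counted. All 10 passed the filter on low counts in every fit. The measurements were 3′ mRNA tag counts (QuantSeq, in which a read marks the end of a transcript) from 12 brain libraries of R6/2 mice, a Huntington's disease (HD) model, and of wild-type (WT) littermates. The study compared HD brain before and after the onset of symptoms in the 2 regions that the disease affects. R6/2 mice carry a transgene made of exon 1 of human HTT with an expanded CAG repeat, so every HD group shares that transgene and no WT group has it.

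The groups were HD striatum and HD cortex at 8 weeks (pre-symptomatic) and at 13 weeks (post-symptomatic), each with 2 libraries, and WT striatum and WT cortex at the same 2 ages, each with 1 library. No other treatment is given for any group. The sources do not say whether the striatal and cortical libraries with the same number came from 1 mouse, or how many mice each library holds, so p-values measure only the spread between these libraries. Total counts ran from 8814386 to 12091201 per library. Levels are given as CPM (counts scaled to a common library total) on library sizes scaled by the trimmed mean of M-values (TMM). In every HD pair replicate 1 held less Xist than Y-linked RNA and replicate 2 more, whereas among WT mice the 8-week libraries held less and the 13-week libraries more. The sex of the WT mice and their age therefore cannot be told apart.

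Neuropeptides are cut from longer precursors in dense-core vesicles and act on G protein-coupled receptors. In striatum, medium spiny neurons (MSNs) of the indirect pathway make enkephalin and those of the direct pathway make dynorphin and substance P, and loss of these RNAs is a long-known feature of HD striatum. Somatostatin and neuropeptide Y mark a class of GABAergic interneurons in both regions, and cholecystokinin, vasoactive intestinal peptide and corticotropin-releasing hormone mark other cortical neurons. In bulk tissue, fewer cells of a type and less RNA per cell cannot be told apart.

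In the GRCm38 annotation (GENCODE) all 10 are protein-coding genes. Penk lies at chr4:4133531-4138819 on the minus strand, Pdyn at chr2:129686565-129699844 (minus), Tac1 at chr6:7554879-7565834 (plus), Sst at chr16:23889573-23890958 (minus) and Npy at chr6:49822710-49829507 (plus). Cck lies at chr9:121489824-121495694 (minus), Vip at chr10:5639218-5647617 (plus), Crh at chr3:19693401-19695396 (minus), Cartpt at chr13:99898489-99901091 (minus) and Adcyap1 at chr17:93199017-93206537 (plus). Of these, 9 overlap no other annotated gene. Penk overlaps 1, the antisense gene A830012C17Rik, which was not analysed here. Whether counting used strand is not given in the sources used here, so Penk reads and reads of that antisense gene cannot be told apart.

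Several of these precursor genes are known targets of the transcription factor CREB, which binds the cAMP response element TGACGTCA. The table of RefSeq promoters (GRCm38.p6) matched 8 of the 10 members, with 10 entries. The 250 bases upstream of each start were searched on both strands for the palindrome TGACGTCA and for its half-site TGACG, which reads on the opposite strand as CGTCA. The full palindrome contains the half-site on each strand. Of all 32851 promoters in the table, 1.55% held the full motif and 17.8% the half-site. Among members, the full motif was in the promoters of Sst and Cartpt, and a half-site without the full motif was in those of Tac1, Cck, Vip and Adcyap1. Neither was found in this window of Pdyn or Npy. The windows of 30 bases below show the letters found in each of these 6 genes. Penk and Crh had no entry in the table and were not searched, and a link between the motif and the levels was not tested. The windows run 5′ to 3′ in the gene's direction, and capitals mark the motif.

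Sst, chr16:23890874-23890903, minus strand: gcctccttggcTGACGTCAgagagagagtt
Cartpt, chr13:99900777-99900806, minus strand: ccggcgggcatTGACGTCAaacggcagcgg
Vip, chr10:5639126-5639155, plus strand: gggatcactactgTGACGtctttcggggag
Adcyap1, chr17:93198913-93198942, plus strand: gggactaggatgcTGACGtcttttactgat
Cck, chr9:121495725-121495754, minus strand: tcctgctggactgCGTCAgcactgggtaaa
Tac1, chr6:7555005-7555034, plus strand: ggctctacaggctCGTCAcgcctgagataa

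The motif began 48 bases before the start in Sst, 112 in Cartpt, 79 in Vip, 91 in Adcyap1 (the first of its 2 starts), 47 in Cck and 43 in Tac1, which had another half-site 197 bases before its start that is not shown. A match describes the letters only. Binding was not measured.

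A single library stood apart before any comparison. The second pre-symptomatic HD striatal library held 2991 CPM over 12 MSN markers, against 8056 CPM in its partner, and 0 of the 12 were higher in it. It held 1885 CPM over 6 thalamic markers, against 91.2 to 250 CPM in the other striatal libraries, and 21371 CPM over 10 oligodendrocyte markers, against 3475 to 7508 CPM. Choroid plexus markers (6 genes) summed to 1722 CPM in it, against 96.7 to 354 CPM, and cortical excitatory markers (10 genes) to 468 CPM, against 83.3 to 219 CPM. No marker of these 4 lists was at 0 in it, and Drd2, the receptor that defines indirect-pathway MSNs, had between 0 and 4 reads in every library. Its counts differed from its partner's by a chi-square of 78.2 per degree of freedom, against 7.23 to 20.3 in the other HD pairs. Members made by striatal neurons were lower in it and Cck was higher, so values without it are given beside the results that it moves. In cortex, the second post-symptomatic HD library held 3665 CPM over 6 choroid plexus markers, against 227 to 287 CPM in the other cortical libraries. The ribosomal RNA precursor Rn45s took 10.5% to 15.2% of counts in HD and 4.32% to 5.62% in WT libraries, and leaving it out removed no call of a member.

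**Figure D1:**
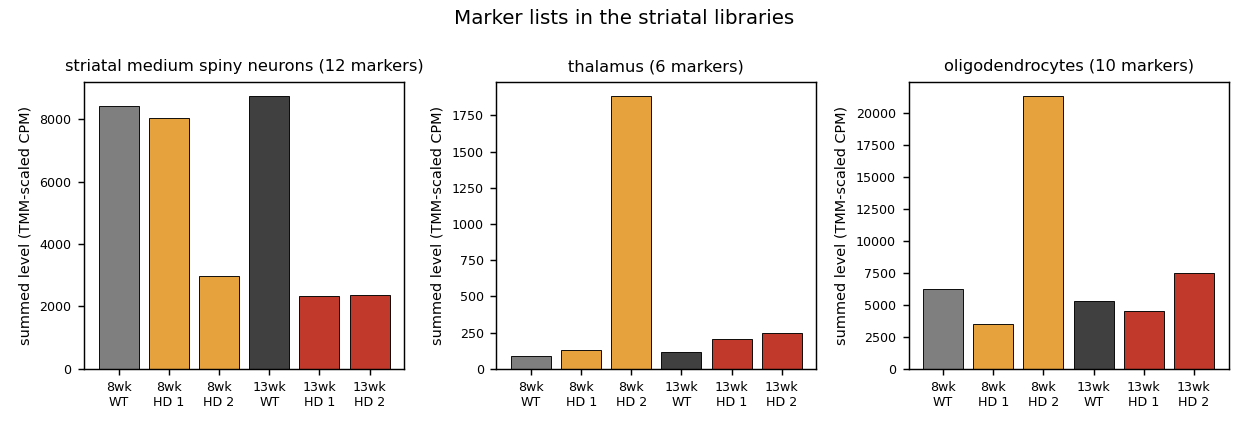
Summed level (TMM-scaled CPM, linear axis from 0) of MSN, thalamic and oligodendrocyte marker lists in each of the 6 striatal libraries. The second 8-week HD library holds 1885 CPM of thalamic and 21371 CPM of oligodendrocyte markers, the highest bar of both panels, and its MSN markers, at 2991 CPM, sit beside the 13-week HD libraries.

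The opioid and tachykinin precursors of MSNs were much lower in post-symptomatic HD striatum than in WT striatum. Penk, the enkephalin precursor, was at 2074 CPM in the 8-week WT library and 2183 CPM in the 13-week WT library. It was at 1705 and 469.7 CPM in the 8-week HD libraries and at 236 and 218 CPM in the 13-week HD libraries. Every HD library was below the WT library of its age, and the post-symptomatic libraries held 10.8% and 10% of the WT level.

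Pdyn, the dynorphin precursor, was at 274 CPM in 8-week and 208 CPM in 13-week WT striatum. It was at 247 and 44.4 CPM in the 8-week HD libraries and at 55.8 and 26.0 CPM in the 13-week ones. The HD ages overlapped, because the second 8-week library lay between the 13-week pair. Tac1, the precursor of substance P and neurokinin A, was at 531 and 528 CPM in WT striatum at 8 and 13 weeks, at 490.4 and 121 CPM in 8-week HD striatum and at 178 and 176 CPM in 13-week HD striatum. The post-symptomatic pair agreed closely, with a mean of 177 ± 1.35 CPM (SD, n = 2), and the second 8-week library was the lowest of the striatal libraries.

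**Figure D2:**
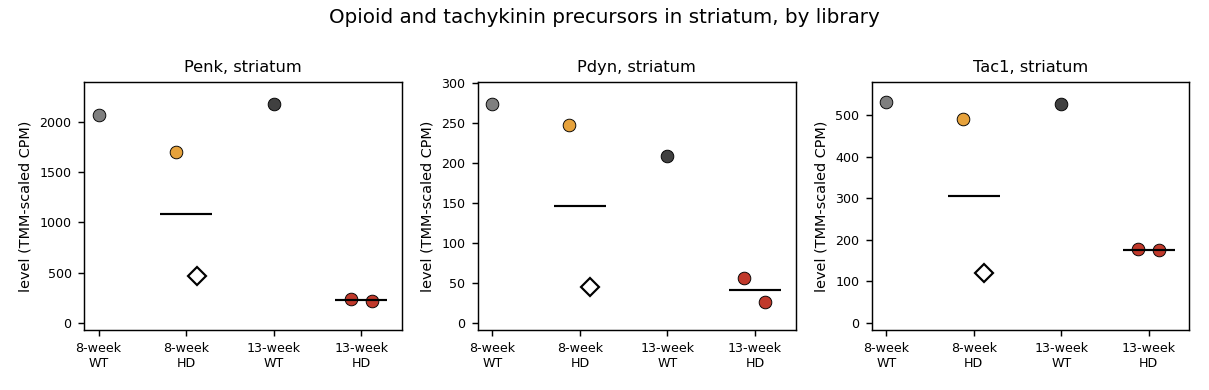
Level (TMM-scaled CPM, linear axis) of Penk, Pdyn and Tac1 in each striatal library, by age and genotype. Points are libraries, lines are means of HD pairs, and the open diamond is the second 8-week HD library. The 13-week HD points are far below both WT points in all 3 panels, at 236 and 218 CPM for Penk.

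In the WT comparison at 13 weeks, striatal Penk differed by −3.26 on the log2 scale (SE 0.649, 9.6-fold lower in HD), with an adjusted p of 0.0815 in edgeR's quasi-likelihood test. Pdyn differed by −2.35 (SE 0.978, adjusted p = 0.357, edgeR) and Tac1 by −1.58 (SE 0.649, adjusted p = 0.335, edgeR). The median difference of the 12 MSN markers in the same comparison was −2.08, with 12 of 12 negative and 1 of them called, and the median of all genes was 0.0169. The part of MSN number or identity in the values of these 3 peptides was not tested. This fit takes its spread from the HD pairs. The second 8-week HD library is in neither group compared here, so leaving it out could hardly move these differences. They were then −3.26 (Penk), −2.34 (Pdyn) and −1.58 (Tac1), which is no check on them. Leaving out either 8-week HD striatal library raised the calls in this comparison, among members and over all genes alike.

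The same 3 genes were present at low levels in cortex, where their post-symptomatic values were lowest as well but none was called. Cortical Penk was at 42.4 and 58.2 CPM in WT mice of 8 and 13 weeks, at 25.7 and 28.7 CPM in 8-week HD mice and at 7.91 and 13.5 CPM in 13-week HD mice. Cortical Pdyn was at 30.3 and 28.6 CPM in the WT libraries, at 31.5 and 15.2 CPM in 8-week HD mice and at 2.24 and 3.26 CPM in 13-week HD mice. Cortical Tac1 was at 18.4 and 29.5 CPM in WT, at 16.8 and 13.2 CPM in 8-week HD and at 9.03 and 8.82 CPM in 13-week HD cortex. In all 3 genes the post-symptomatic pair was below every other cortical library. Of all genes tested, 28.8% had both 13-week HD cortical libraries below both 8-week HD ones, which is a looser pattern. The share that was below the WT libraries as well is not given here. For Penk, Pdyn and Tac1 the adjusted p-values by edgeR were 0.352, 0.206 and 0.635 between the HD ages in cortex. Against WT cortex at 13 weeks they were 0.248, 0.331 and 0.41.

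Sst and Npy were lower in post-symptomatic HD brain in both regions, with the smallest adjusted p-values of the 10 members in both joined-region comparisons that used the 13-week HD libraries. Sst, the somatostatin precursor, was at 298 and 315 CPM in WT striatum at 8 and 13 weeks. It was at 272 and 215 CPM in 8-week HD striatum and at 143 and 110.0 CPM in 13-week HD striatum. In cortex Sst was at 436 and 393 CPM in WT, at 264 and 307 CPM in 8-week HD and at 87.7 and 76.3 CPM in 13-week HD mice. The order of the groups was the same in both regions, with 13-week HD lowest and 8-week HD next. No post-symptomatic library overlapped another group, and the share of all genes with that pattern is not given here. In both regions, 11.3% of all genes tested had the 13-week HD libraries below the 8-week HD ones. The 13-week WT library was above them in 22.7%. The post-symptomatic pairs held 45.2% and 34.9% of the WT level in striatum and 22.3% and 19.4% in cortex.

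Npy, the neuropeptide Y precursor, was at 187 and 203 CPM in WT striatum, at 239.8 and 125 CPM in 8-week HD striatum and at 74.2 and 71.5 CPM in 13-week HD striatum. In cortex it was at 453 and 384 CPM in WT, at 403 and 501 CPM in 8-week HD and at 122 and 104 CPM in 13-week HD mice. The 8-week HD values lay on both sides of the WT value in each region, and the 13-week HD values were below all others. As for Sst, the share of all genes with that last pattern is not given here.

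**Figure D3:**
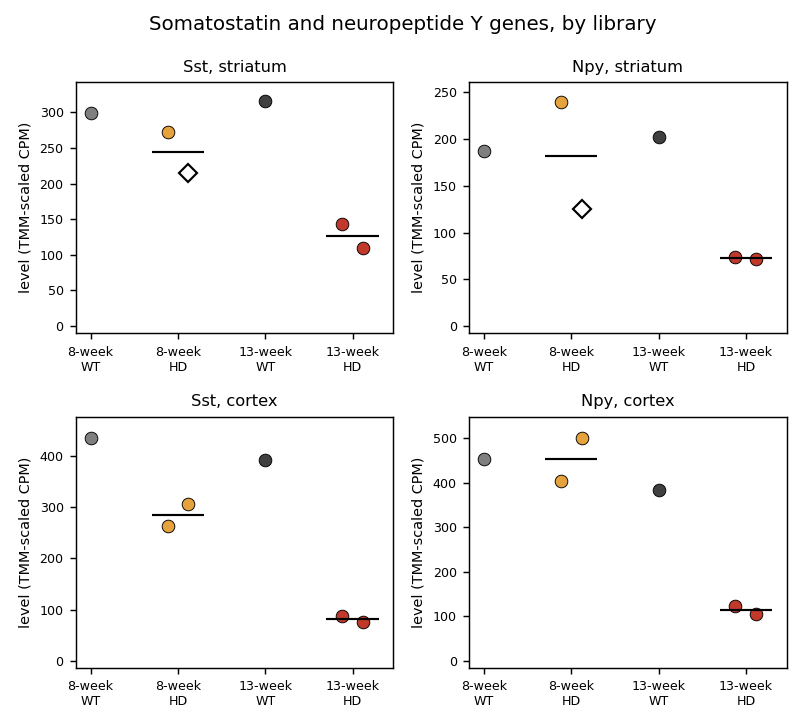
Level (TMM-scaled CPM, linear axis) of Sst and Npy in each striatal (top) and cortical (bottom) library, by age and genotype. Points are libraries, lines are means of HD pairs and the open diamond is the second 8-week HD striatal library. In each panel the 2 post-symptomatic HD points are lowest, at 87.7 and 76.3 CPM for cortical Sst.

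Against WT at 13 weeks, Sst was called in each region. It fell by 1.32 on the log2 scale in striatum (SE 0.234, adjusted p = 0.0449, edgeR) and by 2.26 in cortex (SE 0.234, adjusted p = 0.0204, edgeR). The striatal call was lost without either post-symptomatic library of either region and without either 8-week cortical library, and its adjusted p then lay between 0.136 and 0.217. The cortical call was lost without any of the 4 HD cortical libraries, with adjusted p-values between 0.127 and 0.287. Npy differed by −1.48 in striatum (SE 0.329, adjusted p = 0.0796, edgeR) and by −1.76 in cortex (SE 0.327, adjusted p = 0.12, edgeR), which did not pass.

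Other interneuron markers were read beside these values. Of 10 such markers, 9 were negative in 13-week HD cortex against WT, with a median of −0.85, and 1 was called. That gene was Gad1, which makes GABA and is not specific to Sst cells, at −1.46 (SE 0.211, adjusted p = 0.0467, edgeR). Lhx6, a transcription factor of Sst and Pvalb interneurons, differed by −0.63 (SE 0.46, adjusted p = 0.666, edgeR), and Chodl, a marker of Sst and Npy cells with long axons, by −3.87 (SE 1.09, adjusted p = 0.23, edgeR), the latter from 5 and 1 reads in HD and 47 in WT cortex. The summed level of the 10 markers was 244 CPM in both post-symptomatic HD cortical libraries and 440 to 559 CPM in the other cortical libraries. In striatum it was 541 and 677 CPM in the post-symptomatic HD libraries and 730 to 972 CPM in the others. There the fitted differences from WT at 13 weeks were positive for 6 and negative for 4 of the 10, with a median of 0.03 and 0 called by edgeR (2, Gad1 and Nos1, at an unadjusted p under 0.05). None of the 10 was at 0 in a post-symptomatic library. The part of interneuron number in the Sst and Npy values was not tested.

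Of the other 5 members, all but Adcyap1 were lowest in post-symptomatic HD cortex among the cortical libraries, but none was called there. Between the HD ages alone, a looser pattern, 28.8% of all genes tested had both 13-week below both 8-week cortical libraries. The share that was below the WT libraries as well is not given here. For Cck, Vip, Crh and Cartpt the adjusted p-values of that comparison by edgeR were 0.535, 0.259, 0.63 and 0.431. Against WT cortex at 13 weeks they were 0.692, 0.359, 0.759 and 0.613. Cck, the cholecystokinin precursor, was at 1169 and 1049 CPM in WT cortex at 8 and 13 weeks, at 1142 and 957 CPM in 8-week HD cortex and at 396 and 375 CPM in 13-week HD cortex. Vip, the precursor of vasoactive intestinal peptide, was at 38.3 and 38.5 CPM in WT, at 37.0 and 35.5 CPM in 8-week HD and at 10.8 and 14.1 CPM in 13-week HD cortex. For both genes the 8-week HD and WT values were close together and the post-symptomatic pair stood apart below them. Cortical excitatory markers (10 genes) summed to 1351 and 1336 CPM in the 13-week HD cortical libraries and 1991 to 2084 CPM in the other cortical libraries. In the HD age comparison in cortex 9 of these 10 were negative, with a median of −0.44 and 0 called by edgeR (0 at an unadjusted p under 0.05), and none was at 0. Of the 10 GABAergic interneuron markers, 8 were negative in the same comparison, with a median of −0.81 and 1 called by edgeR. The part of neurons of either list in the Cck and Vip values was not tested.

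Crh, the corticotropin-releasing hormone precursor, was at 43.4 and 31.3 CPM in WT cortex, at 28.8 and 33.8 CPM in 8-week HD cortex and at 10.2 and 7.24 CPM in 13-week HD cortex. Cartpt, the precursor of CART peptides, was at 17.9 and 11.7 CPM in WT, at 12.2 and 12.3 CPM in 8-week HD and at 2.15 and 0.529 CPM in 13-week HD cortex, the last from 6 reads. Both were lowest in the post-symptomatic pair, which for Cartpt rests on 25 and 6 reads.

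Adcyap1, the precursor of PACAP, did not follow the others. It was at 8.35 and 11.96 CPM in WT cortex, at 9.36 and 8.15 CPM in 8-week HD cortex and at 7.66 and 8.82 CPM in 13-week HD cortex. The HD ages overlapped, and the difference between them in cortex was −0.09 on the log2 scale (SE 0.724, adjusted p = 0.976, edgeR), and a p that misses the threshold does not show that its level held.

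**Figure D4:**
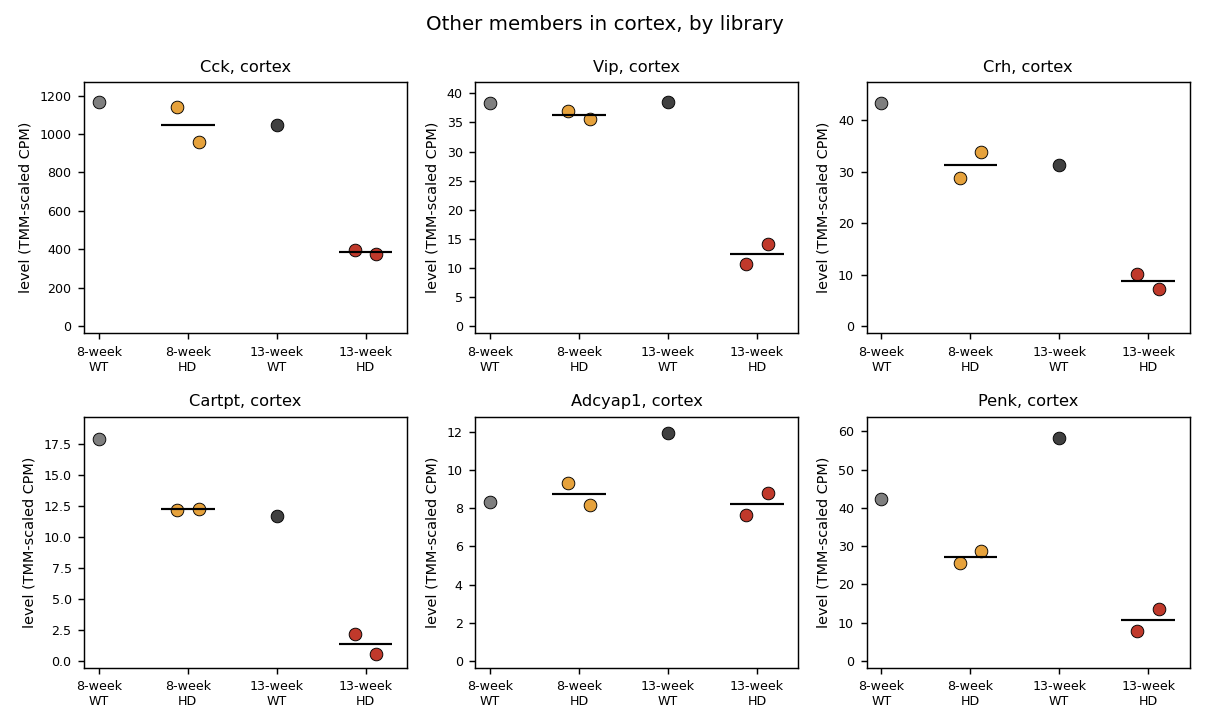
Level (TMM-scaled CPM, linear axis, a different range in each panel) of Cck, Vip, Crh, Cartpt, Adcyap1 and Penk in each cortical library, by age and genotype. Points are libraries and lines are means of HD pairs. The 13-week HD points are lowest in 5 of the panels, at 396 and 375 CPM for Cck, and overlap the 8-week HD points in that of Adcyap1.

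In striatum these genes were uneven between libraries. Striatal Cck was at 79.1 and 23.8 CPM in WT mice of 8 and 13 weeks, at 36.4 and 339.8 CPM in 8-week HD mice and at 18.7 and 11.7 CPM in 13-week HD mice, so that the library with thalamic, choroid plexus and cortical excitatory markers was far above all others. The part of those tissues in its Cck was not tested. Striatal Cartpt was at 71.5 and 15.9 CPM in WT, at 70.5 and 3.98 CPM in 8-week HD and at 6.51 and 0.53 CPM in 13-week HD mice. The 2 WT libraries alone differed 3.32-fold for Cck and 4.49-fold for Cartpt, both lower at 13 weeks, with no replicate to measure their spread. Striatal Crh was at 10.2 and 21.5 CPM in WT, at 28.1 and 2.47 CPM in 8-week HD and at 8.09 and 0 CPM in 13-week HD mice, where a count of 0 allows up to 0.32 CPM. Striatal Vip had at most 18 reads in a library and striatal Adcyap1 at most 8, so their levels stayed at or below 1.81 CPM and their fitted differences within striatum are not given.

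The summed level of all 10 members was 3528 and 3501 CPM in WT striatum at 8 and 13 weeks, 3092 and 1323 CPM in 8-week HD striatum and 720.2 and 616 CPM in 13-week HD striatum. In cortex it was 2256 and 2036 CPM in WT, 1971 and 1913 CPM in 8-week HD and 656 and 612 CPM in 13-week HD mice. Penk made up most of the striatal sum and Cck most of the cortical sum in WT mice.

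The change within HD mice from 8 to 13 weeks was tested with both regions in 1 fit of the 8 HD libraries. Of the 10 members 3 were called, where 6.45% of all genes tested were called in either direction, and all 3 were lower at 13 weeks. Npy fell by 1.65 on the log2 scale (SE 0.227, 3.13-fold, adjusted p = 0.00591, edgeR), Sst by 1.36 (SE 0.197, 2.57-fold, adjusted p = 0.00614, edgeR) and Penk by 1.81 (SE 0.412, 3.51-fold, adjusted p = 0.0435, edgeR). The other 7 differences were also negative and did not pass, from −0.20 (Adcyap1, SE 0.576, adjusted p = 0.876, edgeR) to −3.26 (Cartpt, SE 1.03, adjusted p = 0.121, edgeR). The median of the 10 was −1.73, against 0.00232 over all genes tested. Penk, Sst, Npy and Cck were lower in every 13-week library than in every 8-week library of the same region, a pattern of 11.3% of all genes tested.

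Sst and Npy were called in all 14 alternative fits, whereas Penk was called in 4 of the 14. Penk lost its call without any of the 4 post-symptomatic libraries or either 8-week cortical library, with adjusted p-values of 0.0654 to 0.135, and in 4 fits that kept all libraries (0.0561 to 0.122). Without the second 8-week HD striatal library 8 of the 10 were called, all but Crh and Adcyap1. Calls over all genes rose as well, from 900 to 1518, so the gain is not particular to the members. Tac1 then fell by 1.09 (adjusted p = 0.000865, edgeR) and Pdyn fell by 2.83 (adjusted p = 0.00444, edgeR). In an exact permutation test of age within region, which has 36 arrangements, the smallest two-sided p the design allows is 0.0556. Penk, Sst, Npy and Cck were at it. A gene fully apart by age in both regions always reaches that value, so it adds nothing to that pattern.

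By region, 2 members were called in HD cortex, where 0.591% of all genes were called. Sst fell by 1.81 (SE 0.197, 3.50-fold, adjusted p = 0.0117, edgeR) and Npy by 2.01 (SE 0.282, 4.02-fold, adjusted p = 0.0261, edgeR). Both calls were lost without any of the 4 cortical libraries in turn, with adjusted p-values of 0.116 to 0.387, and Npy's also without either 13-week striatal library. In cortex 9 of the 10 members were lower in both 13-week libraries than in both 8-week libraries, a pattern shown by 28.8% of all genes tested.

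In HD striatum 0 members were called by edgeR, where 0.16% of all genes were called, although 4 had an unadjusted p under 0.05 and DESeq2 called 4. Penk differed by −2.21 (SE 0.557, adjusted p = 0.19, edgeR), Sst by −0.91 (SE 0.193, adjusted p = 0.0972, edgeR), Npy by −1.28 (SE 0.277, adjusted p = 0.108, edgeR) and Cck by −3.60 (SE 0.983, adjusted p = 0.23, edgeR). These 4 were also the members lower in both 13-week than in both 8-week striatal libraries, as were 19.2% of all genes. Without the second 8-week library no pair is left at that age, so only sizes are given here. Penk then fell by 2.90, Tac1 by 1.46, Npy by 1.71, Sst by 1.10 and Cck by 1.24, which for Cck is far less than with it. With the partner library left out instead, the Tac1 difference turned to +0.56.

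**Figure D5:**
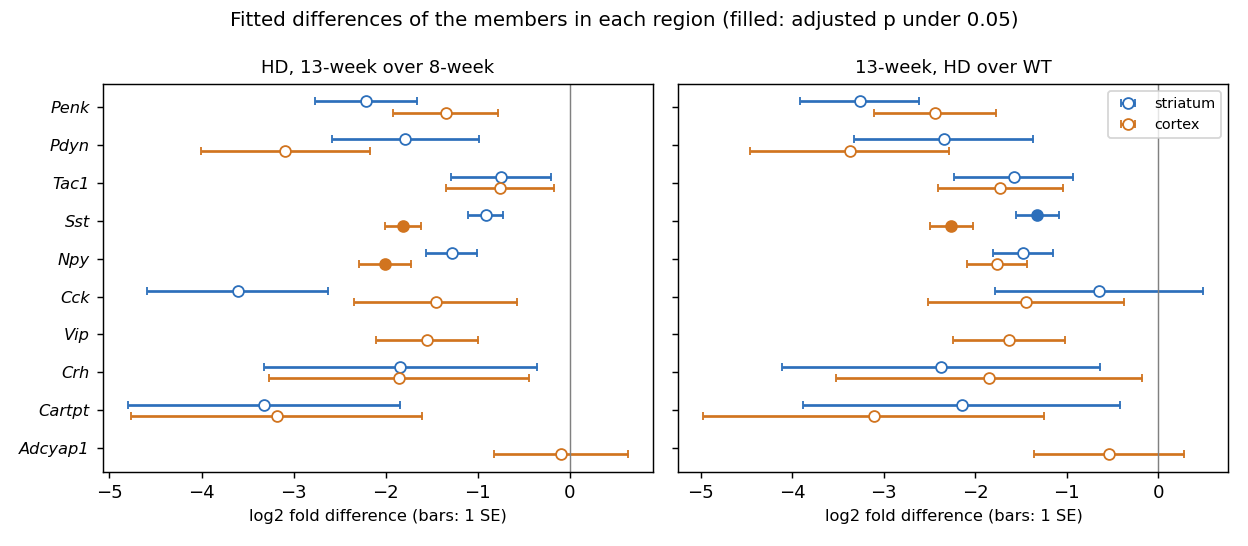
Fitted log2 differences of each member, with bars of 1 SE, in striatum (blue) and cortex (orange), for 13-week over 8-week HD mice (left) and for HD over WT at 13 weeks (right). Filled points passed an adjusted p of 0.05, which were Sst and Npy in cortex on the left and Sst in both regions on the right, at −1.32 and −2.26. All plotted differences lie below 0, and Vip and Adcyap1 are left out for striatum.

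The difference between the regions in this change was itself tested. Of the 10 members 0 were called by edgeR, as were 0% of all genes, 519 of which had an unadjusted p under 0.05 (1 among members), and DESeq2 called 17 genes. The striatal change of Sst was smaller than the cortical one by 0.90 on the log2 scale (SE 0.271, unadjusted p = 0.0092, adjusted p = 1, edgeR). The difference was 0.72 for Npy (SE 0.386, adjusted p = 1) and −0.86 for Penk (SE 0.781, adjusted p = 1). Without the second 8-week striatal library Penk fell further in striatum than in cortex by 1.57 (adjusted p = 0.0295, edgeR), and without its partner the difference turned to +0.32.

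Against WT at 13 weeks with both regions in 1 fit of all libraries, 5 of the 10 members were called, where 7.36% of all genes were called, and all 5 were lower in HD. Penk fell by 2.85 (SE 0.446, 7.21-fold, adjusted p = 0.00657, edgeR), Pdyn by 2.74 (SE 0.632, 6.69-fold, adjusted p = 0.0346, edgeR), Tac1 by 1.65 (SE 0.402, 3.15-fold, adjusted p = 0.0365, edgeR), Sst by 1.76 (SE 0.241, 3.39-fold, adjusted p = 0.00246, edgeR) and Npy by 1.61 (SE 0.237, 3.04-fold, adjusted p = 0.00349, edgeR). Among the rest, Vip differed by −1.51 (SE 0.471, adjusted p = 0.0769, edgeR), Cartpt by −2.69 (SE 1.06, adjusted p = 0.173, edgeR), Crh by −2.13 (SE 1.0, adjusted p = 0.255, edgeR) and Cck by −1.19 (SE 0.829, adjusted p = 0.461, edgeR). All but Adcyap1, at −0.13 (SE 0.764, adjusted p = 0.945, edgeR), were lower in every HD library than in the WT library of its region, as were 22.7% of all genes. The exception rests on striatum, where the 13-week WT library had 0 Adcyap1 reads. In cortex both HD libraries were below WT for this gene, with a difference of −0.54 (SE 0.821, adjusted p = 0.872, edgeR).

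Sst kept its call without each of the 12 libraries. Npy lost it without the 13-week WT striatal library (adjusted p = 0.0838), and Penk without either 13-week WT library (0.114 and 0.055). Pdyn was called in 5 of the 12 such fits and Tac1 in 2, with adjusted p-values up to 0.254 and 0.245. The number of members called was 1 without the 13-week WT striatal library, 2 without the 13-week WT cortical library, 3 without either 13-week HD cortical library or either 8-week WT library, and 7 without the second 8-week HD striatal library. That last removal also moved the calls over all genes, from 1082 to 1834. By region, 1 member (Sst) was called in striatum, where 0.724% of all genes were called, and 1 (Sst) in cortex, where 0.111% were called.

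At 8 weeks, before symptoms, 0 members were called against WT with the regions joined, where 2.1% of all genes were called, and 0 of the 10 had an unadjusted p under 0.05. DESeq2 also called 0. Penk differed by −0.80 (SE 0.442, adjusted p = 0.47, edgeR), Tac1 by −0.57 (SE 0.408, adjusted p = 0.593, edgeR) and Sst by −0.47 (SE 0.245, adjusted p = 0.437, edgeR). Without the second 8-week HD striatal library these differences were −0.54, −0.26 and −0.38 (adjusted p = 0.564, 0.621 and 0.547, edgeR). With it, in these 3 genes, and in Vip and Cartpt, every HD library was below the WT library of its region, as it was for 15.3% of all genes. By region, 0 members were called in striatum (0.228% of all genes) and 0 in cortex (0% of all genes by edgeR, with 1239 genes at an unadjusted p under 0.05 and 52 called by DESeq2). Cortical Sst differed by −0.61 (unadjusted p = 0.0291, adjusted p = 0.553, edgeR). Striatal Cck differed by 1.25 (adjusted p = 0.747, edgeR) with the second HD library and fell by 1.12 (adjusted p = 0.0419, edgeR) without it.

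Whether HD mice changed with age more than WT mice was tested as the difference of the 2 age changes. By edgeR 0 members were called, where 0.116% of all genes were called, 4 members had an unadjusted p under 0.05 and DESeq2 called 3. The difference of the changes, HD less WT, was −1.59 for Npy (SE 0.35, adjusted p = 0.152, edgeR), −1.29 for Sst (SE 0.354, adjusted p = 0.224), −2.05 for Penk (SE 0.653, adjusted p = 0.344) and −2.11 for Pdyn (SE 0.926, adjusted p = 0.556). Without the second 8-week HD striatal library 2 members were called, and calls over all genes rose from 17 to 211. Npy was among the 2, at −1.79 (adjusted p = 0.00228, edgeR). The values for Sst, Penk and Pdyn were then −1.39, −2.33 and −2.51 (adjusted p = 0.0863, 0.0701 and 0.0717, edgeR).

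The 2 regions differed in most members. Over all 12 libraries 7 of 10 were called, where 20.6% of all genes were called. Penk, Tac1 and Pdyn were higher in striatum, by 5.07 (SE 0.361, 33.6-fold), 4.39 (SE 0.316, 21.0-fold) and 3.13 (SE 0.468, 8.75-fold) on the log2 scale, and their adjusted p-values by edgeR were 1.23e-05, 1.13e-05 and 0.00171. Vip, Adcyap1, Cck and Npy were lower in striatum, by differences of −4.85 (SE 0.354), −4.62 (SE 0.577), −3.92 (SE 0.662) and −1.01 (SE 0.166), with adjusted p-values of 4.13e-06, 0.000199, 0.00361 and 0.00117. Sst was close to even, at −0.01 (SE 0.168, adjusted p = 0.968, edgeR), and Crh and Cartpt did not pass. These 7 calls held in all 17 alternative fits. Without the second 8-week HD striatal library the Cck difference was −4.70, larger by over 1.5-fold on the linear scale, and Cartpt was called as well, higher in striatum (1.71, adjusted p = 0.0472, edgeR).

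Genes of the wider peptide system were read from 3 lists. Their values with a library left out are not given here, so how far their calls rest on 1 library is not shown. Of 47 other neuropeptide precursors only 18 had enough counts for the HD age comparison, where 6.45% of all genes were called. Of the 18, 0 were called by edgeR, with a median of −0.47. Against WT at 13 weeks, where 7.36% of all genes were called, 23 were tested and 0 called, with a median of −0.43. In the comparison of regions, where 20.6% of all genes were called, 3 were higher and 4 lower in striatum. Among the higher was Nts, the neurotensin precursor, with means of 17.4 CPM over striatal and 1.17 CPM over cortical libraries (3.84 on the log2 scale, SE 0.734, adjusted p = 0.00506, edgeR).

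Of 26 peptide receptors and binding proteins 18 were tested in the HD age comparison, where 6.45% of all genes were called in either direction. Of the 18, 0 were higher and 2 lower. These were Cckbr, the main brain receptor of cholecystokinin, which fell by 1.42 (SE 0.218, adjusted p = 0.00742, edgeR), and Crhbp, a secreted protein that binds corticotropin-releasing hormone, which fell by 1.68 (SE 0.403, adjusted p = 0.0375, edgeR). Against WT at 13 weeks, where 7.36% of all genes were called, 1 of 19 was higher and 3 lower. Oprl1, the nociceptin receptor, rose by 0.97 (SE 0.201, adjusted p = 0.0139, edgeR) and Cckbr fell by 1.48 (SE 0.256, adjusted p = 0.00636, edgeR). Npy2r, a neuropeptide Y receptor, fell by 1.67 (SE 0.413, adjusted p = 0.0298, edgeR) and Sstr5, a somatostatin receptor, by 3.60 (SE 0.864, adjusted p = 0.0263, edgeR). These last 2 lay under the level set for naming and were named after their values were seen.

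Of 25 proteins of precursor processing and dense-core granules 24 were tested. In HD mice 4 were lower at 13 than at 8 weeks and 0 higher, where 6.45% of all genes were called in either direction. Pcsk2, a convertase that cuts proneuropeptides, fell by 0.77 (SE 0.114, adjusted p = 0.00642, edgeR). Sort1, a sorting receptor, fell by 0.82 (SE 0.13, adjusted p = 0.00826, edgeR) and Chgb, a granin, by 0.65 (SE 0.109, adjusted p = 0.0104, edgeR). The fourth was Chga at −0.86 (adjusted p = 0.039, edgeR), for which the 8-week HD striatal pair held an uneven 1075 and 2332 reads. Against WT at 13 weeks, where 7.36% of all genes were called, 4 were again lower and 0 higher. Sort1 fell by 1.01 (SE 0.154, adjusted p = 0.0035, edgeR), Chgb by 0.63 (SE 0.131, adjusted p = 0.0141, edgeR) and Scg5, which helps Pcsk2 mature, by 0.56 (SE 0.128, adjusted p = 0.0215, edgeR), and Pcsk2 was at −0.60 (adjusted p = 0.0255, edgeR). At 8 weeks, where 2.1% of all genes were called, Scg5 was the only call in the list, lower in HD by 0.82 (SE 0.127, adjusted p = 0.00834, edgeR). The medians of this list, −0.23 in both 13-week comparisons, were nearer to 0 than those of the members.

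Genes whose levels followed each member most closely were found by Pearson r over the 12 libraries, after centring log2 CPM within region, among 10773 genes with at least 5 CPM on average. The libraries share region, genotype and age groups, so r is a description only. For Penk, Sst, Npy and Cck the 4 post-symptomatic HD libraries were also below all others of their region, a pattern whose share over all genes is not given here. The closest gene was Tmem181c-ps for Penk (r = 0.976), Adcy2 for Pdyn (0.983), Rab26 for Tac1 (0.957), Extl1 for Sst (0.982) and Nrsn1 for Npy (0.982). It was Rtn4r for Cck (0.941), Abat for Vip (0.968), Lrrc73 for Cartpt (0.969), D130043K22Rik for Crh (0.959) and Hes1 for Adcyap1 (0.901). Kalrn was among the 3 closest to both Sst (0.97) and Npy (0.98), and Crhbp among those closest to Cartpt (0.951).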

How the data were processed

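The authors deposited raw counts per gene for 12 libraries, 1 table each. Their processing notes name Bowtie2, bedtools and mm10, and the counting rule and its strand setting are not given in the sources used here. Libraries were made from total RNA with a QuantSeq 3′ kit. Counts were used as deposited. Differences were tested with edgeR 4.0.16 in R 4.3.3 (TMM scaling, genes kept by filterByExpr at a count of 10 or more, the robust form of the quasi-likelihood fit, Benjamini-Hochberg adjustment over all genes tested, threshold 0.05). SEs were taken from the fitted difference and its F statistic. HD libraries alone gave the age comparisons, with region as a term or with a mean per group, and all 12 libraries gave those with WT. In single regions each WT library is alone and was assumed to vary like the HD pairs. The scripts were tested on simulated data. Alternatives were DESeq2 1.42.0, upper-quartile scaling, no filter, leaving out the ribosomal RNA precursor Rn45s (4.32 to 15.2% of counts), a replicate block, limma 3.58.1 voom, pooled WT ages and leaving out each library. All 10 members were tested in each comparison, and the text gives fitted values for some of them only. Genes of the 3 peptide lists were named as up to 3 in each direction with the smallest adjusted p among those called with a mean of at least 5 CPM. The members and lists were chosen with earlier results of these data known. Proteins were not used here. For members with at most 20 reads in every library of a region, differences within that region were fitted and counted but are not given. Intervals and limits from counts cover counting error only.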

Additional observations from a re-analysis of the deposited data

How the results depend on the processing

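Of the 79 member differences chosen for reporting, 71 kept their direction in every alternative. The member differences not chosen were left out of this count. Sst and Npy in the HD age comparison with regions joined kept their call in all 14, and Sst against WT at 13 weeks with regions joined in all 17. DESeq2 called 7 members in the HD age comparison with regions joined, 4 in HD striatum, 4 against WT in 13-week striatum, 3 in 13-week cortex and 3 for the difference of the age changes. Without a filter on low counts 1 member was called in HD striatum, and against WT at 13 weeks 3 with regions joined, 2 in striatum and 2 in cortex. With upper-quartile scaling 0 were called in 13-week striatum, and with the WT ages pooled 3 in striatum and 3 in cortex. The cause of these shifts was not tested, except that leaving out a library also removes part of the residual spread.

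Leaving out each library in turn, members called ranged from 2 to 8 in the HD age comparison with regions joined, 0 to 5 in HD striatum, 0 to 7 in HD cortex and 0 to 3 for the difference between regions. Against WT they ranged from 1 to 7 at 13 weeks with regions joined, 0 to 4 in striatum and 0 to 6 in cortex, 0 to 3 in 8-week striatum, and 0 to 2 for the difference of the age changes. The highest counts came without an 8-week HD striatal library, with 8, 5 and 6 members in the joined, striatal and cortical HD age comparisons without replicate 2 and 3, 4 and 7 without replicate 1. Both calls in HD cortex were lost (0 called) without any of the cortical HD libraries.

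Differences that changed sign did so by small amounts or with 1 library. Without a library in turn, Adcyap1 ranged from −0.39 to 0.16 in the joined and −0.21 to 0.011 in the cortical HD age comparison, and −0.65 to 5.02 against WT at 13 weeks, where the highest value leaves only a WT library with 0 reads. Tac1 in HD striatum ranged from −1.46 to 0.56, Crh from −10.23 to 0.76, the region difference of Penk from −1.57 to 0.32, striatal Cck at 8 weeks from −1.12 to 2.10 and the region contrast of Sst from −0.13 to 0.091. With DESeq2 Adcyap1 against WT was 0.0084 and the region contrast of Sst 0.010, which was 0.027 with upper-quartile scaling and 0.0057 without Rn45s.

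The numbers of replicates were not shown to pair libraries. Between striatum and cortex of the same age the pairs' differences correlated at 0.275 (13 weeks) and 0.14 (8 weeks). Between HD groups of different ages, which cannot share a mouse, the correlations were 0.063 to 0.351. With the replicate block, 3, 0 and 2 members were called in the joined, striatal and cortical HD age comparisons. In the joined one Penk lost its call (adjusted p = 0.069) and Cartpt gained one. Replicate number follows sex in every HD pair. Genes called under the block went from 900 to 1030, 23 to 36 and 85 to 109. With same-numbered regions as a random block in voom, 3 members were called in the joined HD age comparison, where Penk was lost (0.067) and Vip gained, and 4 against WT at 13 weeks, where Pdyn (0.0986) and Tac1 (0.106) were lost and Vip gained. Over all genes DESeq2 called 1680, 447 and 558 in those HD comparisons, 1813, 546 and 215 against WT at 13 weeks (joined, striatum, cortex; 1082, 111 and 17 by edgeR), 674, 254 and 52 at 8 weeks (309, 35 and 0) and 231 for the difference of the age changes (17). Leaving out a library moved these counts to 211 to 1518, 0 to 1083 and 0 to 1202 in HD mice and 29 to 1834, 1 to 1469 and 0 to 889 against WT at 13 weeks. WT groups of 1 library and Cartpt, Vip and Adcyap1 at under 20 CPM in most groups limit what could be seen.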
